A study of Mus musculus with 2 samples.

Results

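The cells described here are dendritic cells with transcripts of the C-type lectins Mgl2, Cd209a or Clec10a, found among CD45+ cells sorted from MOC2 tumours of mice given Momordicine-I or vehicle. CD45 is the surface protein of blood-derived cells, and MOC2 is a mouse oral squamous carcinoma line. Of 7734 filtered cells, 113 met the rule and are called cDC2-like below: 70 of 4370 in the Momordicine-I library and 43 of 3364 in the vehicle library. Members were chosen by their measured UMIs: a cell was taken when it held at least 2 UMIs (molecules counted through their barcode) of the lectins Mgl2, Cd209a and Clec10a together and at least 10 UMIs of H2-Ab1, the beta chain of an MHC class II molecule. It also had to hold under 3 UMIs of the complement genes C1qa, C1qb and C1qc, which mark macrophages, none of Xcr1 and Clec9a, which mark cDC1, and under 3 of Ccr7 and Fscn1, which mark mature dendritic cells. Cells with any Cd79a UMI, a B cell gene, or with over 1% of their UMIs from 5 neutrophil genes were left out.

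MOC2 cells in Matrigel were injected under the flank skin of female C57BL/6 mice aged 6 to 7 weeks, and each arm held 10 mice once tumours were palpable. The Momordicine-I arm received this bitter melon triterpenoid at 30 mg/kg into the peritoneum once a day, dissolved in DMSO and Captisol solution, and the vehicle arm received the solution alone. Tumours of 3 mice per arm were pooled, stained for CD45 and with propidium iodide for dead cells, sorted, and made into 1 library per arm with droplet 3′ chemistry; the series title places its question in tumour macrophages and B lymphocytes. The pools cannot be split by mouse and a flank tumour is not in the mouth, so every difference below is between 2 libraries, with no replicate and no test.

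Conventional dendritic cells of type 2 take up antigen and present it on MHC class II, mainly to CD4 T cells. In mouse skin and other barrier tissues they are a mixed population: lectin-rich cells expressing Mgl2 (CD301b), and cells that share genes with monocytes, among them Ccr2, the receptor that draws cells from blood to CCL2. Their development depends on FLT3 ligand and on the transcription factor IRF4, while IRF8 is the factor of cDC1 and plasmacytoid cells.

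The promoters of 3 marker genes are shown because these genes give the cells their name or mark them. Sequences are from RefSeq (GRCm38.p6), on each gene's own strand, and cover the 250 bases before the RefSeq start. Gene positions are from GENCODE; for Mgl2 the RefSeq start lies inside the GENCODE gene, so the end of its window overlaps it. Plet1, encoding a surface protein anchored by GPI, lies at chr9:50494525-50505482, plus strand. Mgl2 lies at chr11:70130329-70137550, plus strand. Cd209a, a mouse relative of human DC-SIGN, lies at chr8:3743397-3748984, minus strand. The promoter windows are chr9:50494275-50494524, chr11:70130107-70130356 and chr8:3748985-3749234, in the same order. Capitals mark matches to the consensus of AP-1 in Plet1 and of PU.1 in Mgl2.
Plet1: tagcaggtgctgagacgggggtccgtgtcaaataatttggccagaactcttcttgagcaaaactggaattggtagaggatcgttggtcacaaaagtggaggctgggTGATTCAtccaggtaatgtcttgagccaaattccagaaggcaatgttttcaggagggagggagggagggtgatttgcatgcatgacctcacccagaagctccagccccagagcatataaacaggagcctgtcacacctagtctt
Mgl2: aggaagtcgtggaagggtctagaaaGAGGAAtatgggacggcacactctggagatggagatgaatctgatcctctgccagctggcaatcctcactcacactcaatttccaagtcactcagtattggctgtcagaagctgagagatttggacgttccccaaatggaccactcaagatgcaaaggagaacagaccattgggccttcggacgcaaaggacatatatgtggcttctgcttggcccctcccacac
Cd209a: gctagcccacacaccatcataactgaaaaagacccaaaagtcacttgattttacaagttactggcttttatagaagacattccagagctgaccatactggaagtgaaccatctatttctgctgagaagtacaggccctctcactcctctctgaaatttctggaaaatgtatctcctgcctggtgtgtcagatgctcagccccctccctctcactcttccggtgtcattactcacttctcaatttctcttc
Both strands were searched for TGANTCA (AP-1), GAGGAA (PU.1) and the NF-kB consensus. The Plet1 window held an AP-1 match ending 137 bases before the RefSeq start, and the Mgl2 window a PU.1 match ending 219 bases before it. The Cd209a window held the letters of none of the 3 motifs. Among 32851 promoter windows of this length, 23.3% held the PU.1 letters, 6.75% the AP-1 letters and 3.90% the NF-kB letters; a match describes the letters, not binding.

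The cells of the Momordicine-I library were shallower. Members had a median of 21436 UMIs in the Momordicine-I library (2160 to 59763) and 29644 in the vehicle library (6980 to 68517), and summed to 1599997 and 1319471 UMIs. The median share of mitochondrial UMIs was 3.02% and 3.29%. The libraries shared 10 barcodes, none of them a member in both. Levels below are CPM, UMIs of a gene per 1000000 UMIs summed over the cells of a gate. Intervals are 95% and cover counting error only, with UMIs of the same cell taken as independent.

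The choosing genes describe the members and are not findings. The 3 lectins together gave 2 to 150 UMIs per cell in the Momordicine-I library (median 20.5) and 2 to 162 in the vehicle library (median 34). Just outside the rule, 9 Momordicine-I and 3 vehicle cells met every other step with 1 lectin UMI, and 29 and 12 with none. Just inside it, 4 and 1 cells had 2 lectin UMIs. The lectins overlapped in part: Mgl2 was seen in 51 of 70 Momordicine-I cells and 34 of 43 vehicle cells, and Cd209a in 40 and 23. Both were seen in 30 and 16 cells, Mgl2 without Cd209a in 21 and 18, and Cd209a without Mgl2 in 10 and 7. Clec10a, encoding the lectin CD301a, was seen in 53 and 24 cells, and it alone let in 9 and 2. Of the 31-base words in the last 500 bases of Clec10a transcripts, 21.3% also occur in Mgl2, its neighbour on chromosome 11, so the split of reads between this pair is uncertain.

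Against the other gates, the members carried cDC2 markers, some of which other gates shared. Sirpa, a cDC2 receptor for CD47, stood at 183 CPM in Momordicine-I and 181 CPM in vehicle members, against 5.0 and 0 CPM in cDC1-like cells, 113 and 84.8 in mature dendritic-like cells, and 273 and 299 in C1q macrophage-like cells. Itgax, encoding CD11c, was at 419 and 398 CPM in the members, at 199 and 217 CPM in mature dendritic-like cells and at 189 and 279 CPM in C1q macrophage-like cells. Irf8 was at 75 and 161 CPM in the members and 1515 and 1759 CPM in cDC1-like cells. Monocyte and macrophage genes varied in level. Some were low: Ly6c2 was at 70.0 and 60.6 CPM in the members and 356 and 528 in monocyte-like cells, and Apoe, a lipid carrier, at 48.1 and 35.6 CPM against 3234 and 2383 in C1q macrophage-like cells. Others were seen in most members: Csf1r at 156 and 163 CPM, in 85.7% and 74.4% of cells, and Cd14 at 161 and 192 CPM, in 67.1% and 62.8%. Ccr2 was at 160 and 122 CPM, in 50% and 34.9% of cells. Cd207, a Langerhans cell marker, had no UMI in any member. Yet 7 of the 8 Langerhans list genes were detected in each library. That list summed to 2016 CPM in Momordicine-I and 1820 CPM in vehicle members. It summed to 1316 and 1698 CPM in mature dendritic-like cells, and to 1329 and 2233 CPM in C1q macrophage-like cells.

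Plet1, named as a marker of these cells, was not particular to them. Its level was 801 CPM in Momordicine-I and 919 CPM in vehicle members, but 1572 and 1297 CPM in cDC1-like cells; mature dendritic-like cells had 270 and 772. Ccl17, encoding a chemokine for CCR4 on T cells, was at 591 and 873 CPM in the members, against 631 and 760 CPM in mature dendritic-like cells and 12.4 and 10.3 CPM in cDC1-like cells. A Plet1 UMI was seen in 61.4% and 69.8% of the members, and in 1.69% and 1.09% of T-like cells, which should lack it and have median depths of 6524 and 7538 UMIs. At a common depth of 3000 UMIs per cell those shares were 49.3% and 53.5% of members and 0.298% and 0.567% of T-like cells, with 1 Momordicine-I member, and 20 and 15 T-like cells, too shallow to enter.

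**Figure D1:**
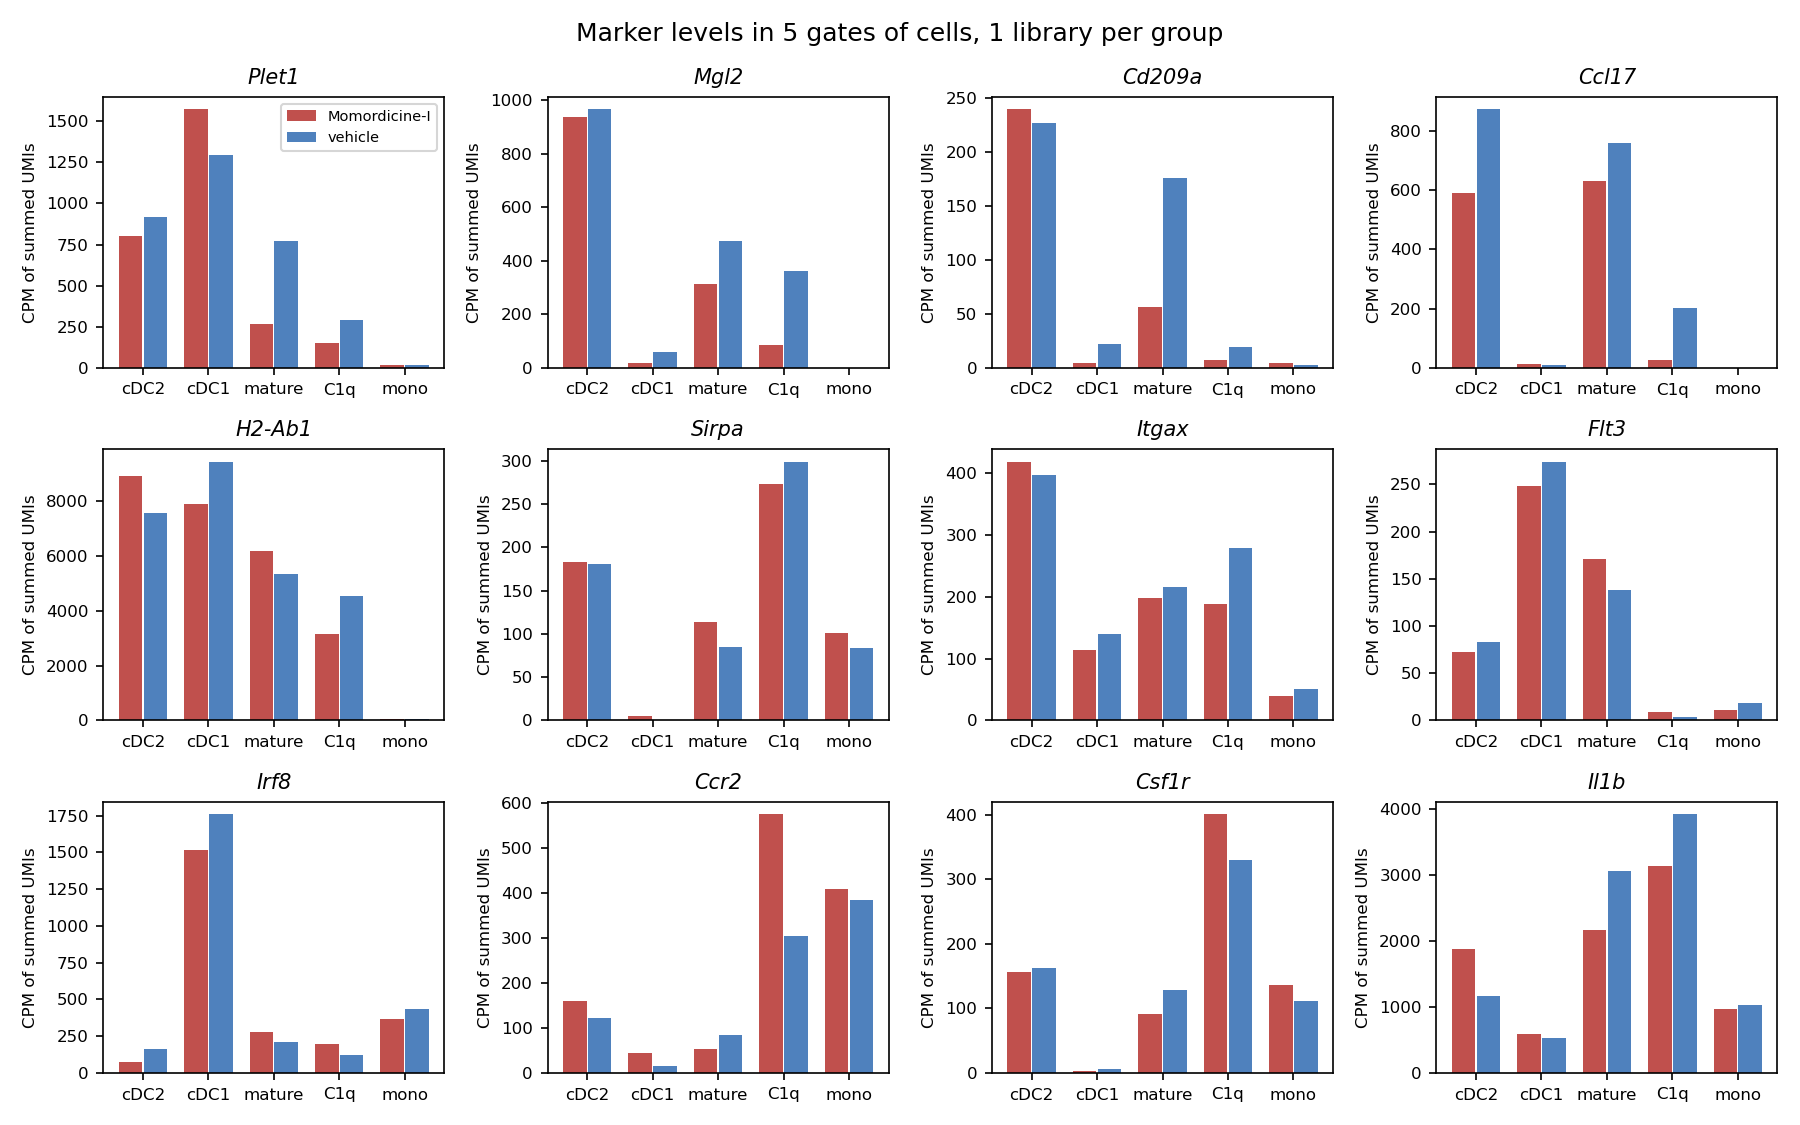
Levels of 12 genes (CPM of summed UMIs, vertical axes starting at 0) in 5 gates, cDC2-like, cDC1-like, mature dendritic-like, C1q macrophage-like and monocyte-like, with Momordicine-I in red left of vehicle in blue and 1 library per bar. Mgl2 and Cd209a, used by the rule, are highest in the cDC2-like gate, while Plet1 is higher in cDC1-like cells, at 1572 and 1297 CPM.

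Genes outside the rule that stood highest in the members were few. Of 5589 genes with at least 50 UMIs in the members, 4 (0.0716%) were at least 2-fold above the highest of the 7 other gates in both libraries, after 10 CPM was added to each level. Cyp4f16, a cytochrome P450, was at 167 CPM in Momordicine-I and 173 CPM in vehicle members, and at most 50.4 and 50.6 CPM in any other gate. Ffar2, a receptor for short-chain fatty acids, was at 184 and 203 CPM in the members and at most 76.8 and 88.9 CPM elsewhere. Cdh17, a cadherin, was at 44.4 and 82.6 CPM in the members and at most 15.1 and 14.8 CPM elsewhere. Bcas1 was at 20.6 and 18.9 CPM in the members and at most 5.04 and 1.23 CPM elsewhere. Each was close between the 2 libraries except Cdh17, which was higher in vehicle members. Napsa, an aspartic protease lower in that ranking, was at 703 and 852 CPM in the members against 403 and 468 CPM in mature dendritic-like cells.

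Within the members, Plet1 and Ccr2 ran in opposite directions across cells, and both were chosen as the genes to compare others with. Spearman's rho across cells is given as a description, for 70 Momordicine-I and 43 vehicle cells in turn; the cells of a library share its preparation, and cell depth itself had rho 0.21 and 0.16 with Plet1. Among 3227 genes, those most like Plet1 included Gsn, the actin-severing protein gelsolin (0.60 and 0.68), Cst3, a cathepsin inhibitor abundant in dendritic cells (0.54 and 0.71), Itgae, the integrin chain CD103 (0.51 and 0.76), and Itgax (0.50 and 0.61). Mgl2 had rho 0.54 and 0.58, and Cd209a −0.16 and −0.28; the rule used the sum of these lectins, so their values are no finding. Those most unlike Plet1 included Cd44, the hyaluronan receptor (−0.56 and −0.60), Npc2, a cholesterol carrier (−0.51 and −0.68), and Ccr2 (−0.51 and −0.55). Ccr2 in turn went with Vim, the filament protein vimentin (0.58 and 0.67), and Lyz2, the lysozyme of myeloid cells (0.49 and 0.49). Cd209a had rho 0.45 and 0.42 with Ccr2, which is likewise no finding because the rule used Cd209a. Itgae and Gsn were among the genes most unlike Ccr2, at −0.52 and −0.50 for Itgae and −0.55 and −0.55 for Gsn.

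**Figure D2:**
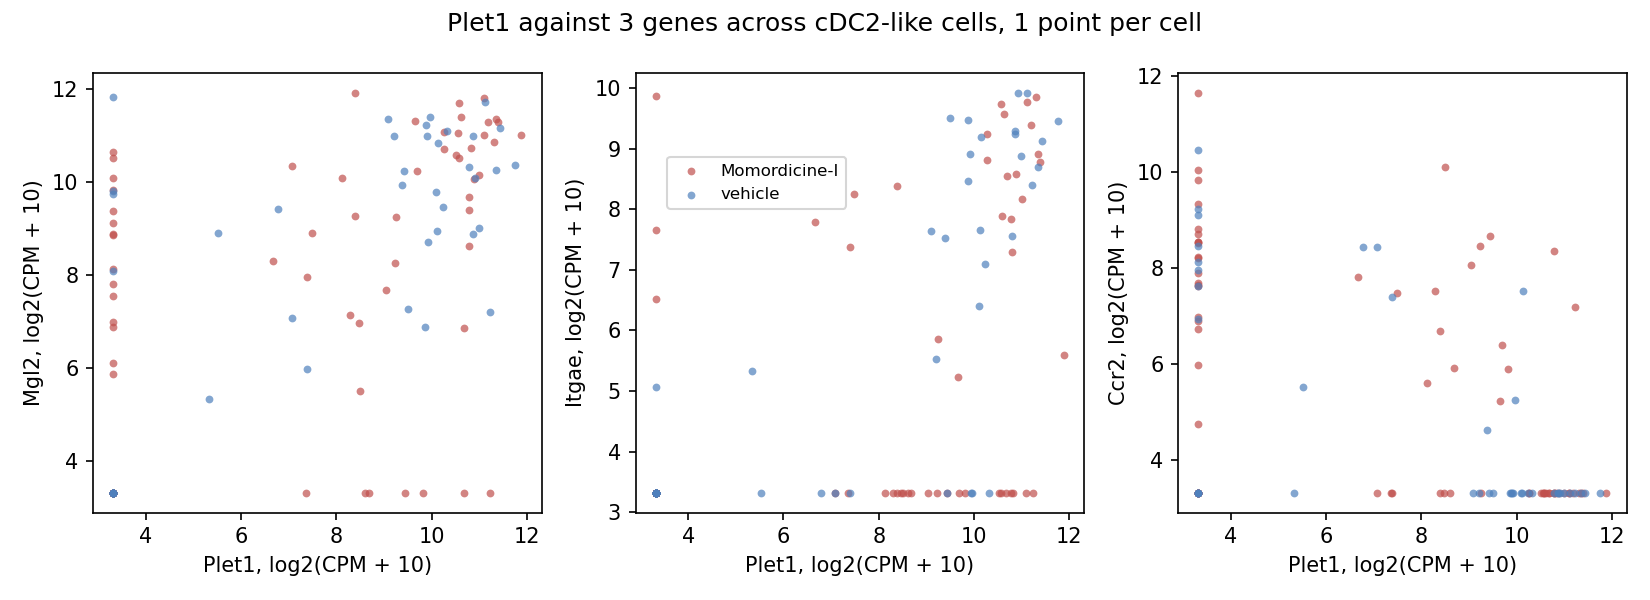
Plet1 (horizontal, log2 of CPM + 10 per cell) against Mgl2, Itgae and Ccr2 (vertical, same scale), 1 point per cDC2-like cell, Momordicine-I in red and vehicle in blue; a cell with no UMI lies at the lowest value. High-Plet1 cells tend to be high in Mgl2 and Itgae, and Ccr2 is mostly at 0 there, with rho −0.51 and −0.55. The rule used Mgl2, so its trend is no finding.

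Cells split by whether a Plet1 UMI was seen showed the size of these differences. Itgae, Ccr2 and Lyz2 stood out by rho in these same cells, so the split is no separate support. Itgae was at 213 CPM in the 43 Momordicine-I cells with Plet1 and 14.3 CPM in the 27 without, and at 301 CPM in the 30 vehicle cells with it and 2.75 CPM in the 13 without. Mgl2 was at 1246 CPM with Plet1 and 360 CPM without it in Momordicine-I cells, and at 1144 and 494 CPM in vehicle cells. The rule used Mgl2, so these values are no finding. On the other side, Ccr2 was at 83.7 CPM with Plet1 and 301 CPM without it in Momordicine-I cells, and at 31.4 and 360 CPM in vehicle cells. Lyz2 ran the same way, at 52.0 CPM with Plet1 and 780 CPM without it in Momordicine-I cells, and at 115 and 1329 CPM in vehicle cells. Few cells weighed heavily on these Lyz2 sums. Its cell medians over all members were 28.9 CPM in Momordicine-I and 0 in vehicle cells. The highest cells, both without Plet1, reached 5004 and 10323 CPM. Some cells held both genes: 15 Momordicine-I cells (21.4%) and 7 vehicle cells (16.3%) held UMIs of both Plet1 and Ccr2, and 4 (5.80%) and 1 (2.33%) did at 3000 UMIs per cell. Plet1 alone was seen in 40.0% (28.5 to 52.4%) of Momordicine-I cells and 53.5% (37.7 to 68.8%) of vehicle cells, and Ccr2 alone in 28.6% (18.4 to 40.6%) and 18.6% (8.39 to 33.4%). These intervals overlap; at 3000 UMIs per cell, Plet1 alone was seen in 43.5% and 51.2%, and Ccr2 alone in 15.9% and 14%.

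Siglech, a receptor of plasmacytoid dendritic cells, was seen in 3 Momordicine-I and 5 vehicle members, where it reached 3805 and 3228 CPM in the highest cell. All 3 Momordicine-I cells and 4 of the 5 vehicle cells lacked Plet1. The results were recomputed without these cells.

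The members made up 1.6% of filtered Momordicine-I cells (1.25 to 2.02%, exact binomial interval) and 1.28% of filtered vehicle cells (0.927 to 1.72%). The ratio was 1.25, with a counting interval of 0.845 to 1.88 that includes 1. Of cells passing the neutrophil step, the shares were 4.38% (3.43 to 5.50%) and 3.15% (2.29 to 4.21%), a ratio of 1.39 (0.939 to 2.09). Of cells in the 3 dendritic gates, they were 59.3% of 118 Momordicine-I and 62.3% of 69 vehicle cells. A difference in cell share was not detectable at these cell numbers, and mouse-to-mouse variation cannot be had from pooled tumours.

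Between libraries, most genes of the members stood at like levels. Of 5847 genes with at least 50 UMIs, 323 (5.52%) were at least 1.5-fold higher in Momordicine-I members and 303 (5.18%) at least 1.5-fold lower, and the median log2 ratio was 0.02. The whole counting interval lay past that fold for 31 higher and 51 lower genes. Single cells carried part of this: of the 626 genes past the fold, 40 had over 50% of the higher library's UMIs in 1 cell. Genes past it by summed UMIs, by the mean of cells and after dropping each library's highest cell for the gene numbered 243 higher and 171 lower.

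Antigen presentation was at like levels. None of the 12 measured MHC class II genes and none of the 21 measured MHC class I genes passed the fold in either direction, beside 10.7% of all genes, and both medians were 0.13 on the log2 scale. H2-Aa, an MHC class II alpha chain, was at 7619 CPM in Momordicine-I and 6569 CPM in vehicle members, a ratio of 1.16 (1.13 to 1.19). Cd74, the invariant chain, was at 16911 and 15105 CPM, a ratio of 1.12 (1.10 to 1.14). Ciita, the master regulator of these genes, was at 229 and 289 CPM, a ratio of 0.792 (0.684 to 0.917). Every member held UMIs of H2-Aa and Cd74, but the rule required H2-Ab1, another MHC class II gene, so this is no finding. The cell medians of H2-Aa were 7649 and 6655 CPM.

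Among named genes with at least 50 CPM in a library, Cd83 stood farthest above its vehicle level by the lower bound of its ratio. CD83 is a surface protein of activated dendritic cells that keeps MHC class II and CD86 on the membrane, and its gene lies at chr13:43784775-43803132. It was at 428 CPM in Momordicine-I and 136 CPM in vehicle members, a ratio of 3.14 (2.66 to 3.72), with UMIs in 50 of 70 and 21 of 43 cells. Over single cells the lowest, median and highest values were 0, 80.7 and 3542 CPM in Momordicine-I members and 0, 0 and 1202 CPM in vehicle members. The 2 sets of cells overlapped, and vehicle cells were mostly without a UMI. At 3000 UMIs per cell, 44.9% (32.9 to 57.4%) of Momordicine-I and 11.6% (3.89 to 25.1%) of vehicle members held one, against 8.63% and 7.93% of T-like cells.

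Cd83 was above its vehicle level on both sides of the Plet1 split. Cells with Plet1 had 305 CPM in the Momordicine-I library and 44.0 CPM in the vehicle library. Cells without Plet1 had 656 and 379 CPM. The same ratio was 1.91 (1.6 to 2.30) in mature dendritic-like cells, of which the vehicle library held 9, 1.26 (1.01 to 1.57) in cDC1-like, 1.19 (0.949 to 1.5) in monocyte-like and 1.05 (0.715 to 1.54) in C1q macrophage-like cells. In B-like, T-like and neutrophil-like cells it was 1.39, 1.34 and 1.4. The difference between gates was not tested. Over all the alternatives tried, the log2 ratio of Cd83 in the members ran between 1.58 and 2.79. None of them varied the Ccr7 and Fscn1 step, which cut 92 Momordicine-I cells to 70 and 48 vehicle cells to 44. Members still held 9 and 2 Ccr7 UMIs. The mature dendritic-like gate held 0.755% of filtered Momordicine-I and 0.268% of filtered vehicle cells. The part of maturing cells in the Cd83 ratio was not tested.

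Of 18 measured dendritic maturation genes, Cd83 was past the fold upward, beside 5.52% of all genes, and Socs1, an inhibitor of cytokine signalling, and Icam1, an adhesion ligand of T cells, were past it downward, beside 5.18% of all genes, with a median of −0.07. Icam1 fell short of the fold in several alternatives, to a log2 ratio of −0.40 with the looser lectin gate. Of 13 co-stimulation and checkpoint genes, Tnfsf9 (7.69%), the ligand 4-1BBL, was past it upward, beside 5.52% of all genes. Tnfsf9 was at 62.5 CPM in Momordicine-I and 35.6 CPM in vehicle members, a ratio of 1.75 (1.23 to 2.54). Cd86 was at 209 and 195 CPM, a ratio of 1.07. Cd80 was at 75.6 and 59.9 CPM and Cd40 at 23.1 and 31.8 CPM. Cd274, encoding PD-L1, was at 110 and 129 CPM, a ratio of 0.854 with an interval of 0.688 to 1.06.

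**Figure D3:**
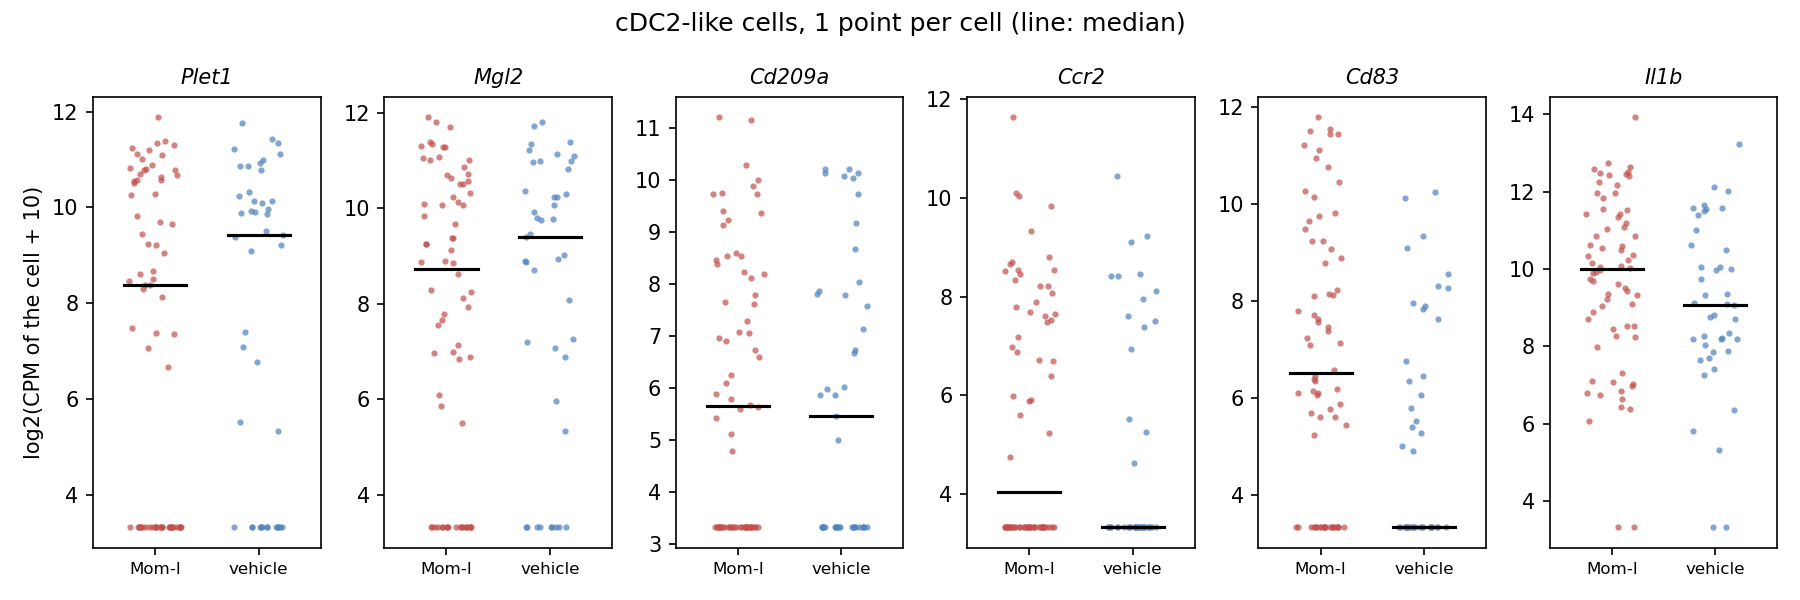
Level of Plet1, Mgl2, Cd209a, Ccr2, Cd83 and Il1b in each cDC2-like cell (vertical, log2 of CPM + 10), 70 Momordicine-I cells in red left of 43 vehicle cells in blue; the black line is the median. The Cd83 median is 80.7 CPM in Momordicine-I cells and 0 in vehicle cells, with overlapping ranges.

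Inflammatory chemokines split in direction. Of 11 measured chemokines, 3 (27.3%) were past the fold upward and 4 (36.4%) downward, beside 5.52% and 5.18% of all genes. Ccl4, an attractant of T cells and monocytes, was at 576 CPM in Momordicine-I and 298 CPM in vehicle members, a ratio of 1.93 (1.72 to 2.18). Ccl3, its neighbour on chromosome 11 and a related attractant, was at 356 and 191 CPM, a ratio of 1.86 (1.6 to 2.17), and a log2 ratio of 0.51, short of the fold, once cells with T or NK marker UMIs were left out. Cxcl16, a ligand of CXCR6 on T cells, was at 304 and 200 CPM, a ratio of 1.52 (1.30 to 1.77), close to the fold and short of it in several alternatives, with a lowest log2 ratio of 0.39. The shares of cells with a Ccl4 UMI ran the other way, 51.4% of Momordicine-I and 69.8% of vehicle members, and the highest cells reached 7568 and 2124 CPM.

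The ratios of Ccl3 and Ccl4 differed in direction between the other gates, without a test. In cDC1-like cells Ccl3 was at 176 CPM in the Momordicine-I and 56.5 CPM in the vehicle library, a ratio of 3.12 (2.04 to 4.87), and Ccl4 had a ratio of 1.15. In monocyte-like cells Ccl4 was at 392 CPM in the Momordicine-I and 958 CPM in the vehicle library, a ratio of 0.409, and Ccl3 had a ratio of 0.305. Neutrophil-like cells held both at far higher levels than the members, with Ccl3 at 2561 and 2743 CPM. T-like cells had Ccl4 at 237 and 175 CPM, a ratio of 1.35, and Ccl3 at 235 and 198 CPM, so the vehicle members' 191 CPM was no higher than in T-like cells. How much of the members' Ccl3 and Ccl4 was free RNA was not tested.

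Cxcl2, a neutrophil attractant, was at 575 CPM in Momordicine-I and 1368 CPM in vehicle members, a ratio of 0.420 (0.388 to 0.455). Its cell medians were 213 and 227 CPM, and 1 cell held 42.5% of its Momordicine-I UMIs and 1 cell 29.6% of its vehicle UMIs. The sums thus differed more than the medians. T-like cells had Cxcl2 at 1078 and 891 CPM and neutrophil-like cells at 33760 and 35345 CPM, and the part of free RNA in the members' level was not tested. Cxcl3 was at 68.8 and 181 CPM, with 52.7% and 43.9% of its UMIs in 1 cell. Ccl2, the ligand of CCR2, was at 10.0 and 75 CPM, seen in 4 and 5 cells. Ccl17 was at 591 and 873 CPM, a ratio of 0.676 that did not pass the fold, and its cell median was 0 in both libraries, with UMIs in 31 and 20 cells. That ratio lay close to the fold and passed it downward without the vehicle cell highest in interferon genes, described below. Over the alternatives its log2 value ran from −0.77 to −0.26.

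Il1b was the main cytokine of the members. IL-1 beta is an inflammatory cytokine made as an inactive precursor. Il1b was at 1873 CPM in Momordicine-I and 1160 CPM in vehicle members, a ratio of 1.62 (1.52 to 1.72), with UMIs in 68 of 70 and 41 of 43 cells and cell medians of 1008 and 525 CPM. In T-like cells, which should hold little of it, Il1b was at 366 and 225 CPM, a ratio of 1.62 (1.48 to 1.78), and in neutrophil-like cells at 13910 and 11088 CPM, a ratio of 1.25. The T-like ratio was as large as that of the members, at a lower level, and its part in the members' ratio was not tested. Ratios of Il1b in cDC1-like, mature dendritic-like and C1q macrophage-like cells were 1.12, 0.707 and 0.80. Without the members that held T or NK marker UMIs, the log2 ratio of Il1b was 0.33, short of the fold, against 0.69 over all members.

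Other cytokines were lower in level or sparse. Tnf was at 65.0 CPM in Momordicine-I and 108 CPM in vehicle members, a ratio of 0.600 (0.461 to 0.778). At 3000 UMIs per cell its direction turned, with a log2 ratio of 0.90. Tgfb1 was at 251 and 225 CPM, a ratio of 1.12. Il12b, the subunit of IL-12 that drives Th1 responses, had 1 and 0 UMIs, and Il10 had 0 and 2, so neither could be compared.

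Among receptors that guide cells, Cxcr4 and Ccr9 were past the fold upward and Itgae downward. Cxcr4, the receptor for CXCL12, was at 186 CPM in Momordicine-I and 89.4 CPM in vehicle members, a ratio of 2.08 (1.67 to 2.59), with UMIs in 43 and 23 cells. It was higher on both sides of the Plet1 split, at 94.3 CPM in Momordicine-I and 39.8 CPM in vehicle cells with Plet1, and at 355 and 220 CPM in those without. Cxcr4 was also higher in T-like cells, 310 and 211 CPM, and B-like cells, 578 and 340 CPM. Ccr2 was at 160 and 122 CPM, a ratio of 1.31 (1.07 to 1.61) that did not pass the fold. Itgae was at 143 and 219 CPM, a ratio of 0.653 that fell short of the fold with the looser lectin gate, in cells with Mgl2 or Cd209a and in cells with Plet1, where its log2 ratio was −0.50. Ccr9 came from 5 and 3 cells.

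Lectins outside the rule included Cd209d, a relative of Cd209a on chromosome 8, at 104 CPM in Momordicine-I and 34.1 CPM in vehicle members, a ratio of 3.04 (2.18 to 4.33) that rested on 19 and 10 cells. Mrc1, the mannose receptor, was at 29.4 and 16.7 CPM, and Clec12a, an inhibitory lectin, at 11.9 and 30.3 CPM. Of 13 measured lectin and uptake genes, 3 (23.1%) were past the fold upward and 2 (15.4%) downward, beside 5.52% and 5.18% of all genes. Without the vehicle cell highest in interferon genes, 11 were measured, with 4 higher and 2 lower, and the median moved from −0.05 to 0.27. None of the 31-base words in the last 500 bases of Cd209a or Cd209d transcripts occurs in another gene.

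Other genes high by rank had varied roles. B3gnt5, a glycosyltransferase of glycolipids, was at 55.0 CPM in Momordicine-I and 18.9 CPM in vehicle members, and Tbc1d4, a regulator of vesicle traffic, at 68.1 and 23.5 CPM. Lmo4, a transcriptional cofactor, was at 79.4 and 34.9 CPM, a ratio of 2.28 (1.61 to 3.26), with UMIs in 44 and 23 cells. P2ry10, a receptor for lysophospholipids, was at 215 and 113 CPM, a ratio of 1.90 (1.57 to 2.32). Nfkbiz, an NF-kB cofactor induced by inflammatory signals, was at 326 and 174 CPM, a ratio of 1.87 (1.6 to 2.2), though at 3000 UMIs the share of cells with a UMI was 43.5% and 48.8%, against that order. Mpp7, a scaffold protein, was at 81.9 and 33.3 CPM, and short of the fold, at a log2 ratio of 0.56, without cells holding T or NK marker UMIs. T-like and neutrophil-like cells held more of Mpp7 than the members, at 117 and 99.5 CPM and at 323 and 353 CPM.

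Of 24 measured regulators of dendritic fate, Irf4 and Zeb2 (8.33%) were past the fold upward and 4 (16.7%) downward, beside 5.52% and 5.18% of all genes. Irf8, at chr8:120736358-120756694, was at 75 CPM in Momordicine-I and 161 CPM in vehicle members, a ratio of 0.465 (0.368 to 0.584), with UMIs in 33 and 26 cells. Vehicle cells without Plet1 had the highest level, 371 CPM, against 107 CPM in Momordicine-I cells without it. Without the cells that held Siglech, the log2 ratio was −0.88, against −1.11 over all members, and with at least 4 lectin UMIs required it was −0.29, short of the fold. Irf4 was at 46.3 and 28.8 CPM, a ratio of 1.61 (1.07 to 2.44) that turned below 1 in cells with Plet1 and without cells holding T or NK marker UMIs. Zeb2, a factor of cDC2 and monocyte development, was at 196 and 130 CPM, a ratio of 1.51 (1.25 to 1.83) that fell short of the fold in several alternatives, and Zbtb46, a factor of conventional dendritic cells, at 35.0 and 28.8 CPM.

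Epcam, an adhesion molecule of epithelia and Langerhans cells at chr17:87635979-87651129, was at 13.8 CPM in Momordicine-I and 52.3 CPM in vehicle members, a ratio of 0.263 (0.155 to 0.430), with UMIs in 15 and 13 cells. In the vehicle library all of them lay in cells with Plet1, where the level was 72.2 CPM, against 14.4 CPM in Momordicine-I cells with Plet1. Summed over 12 tumour epithelial genes, the members had 15.6 and 22.0 CPM, with Krt5 at 0 in both libraries. Tcea3, a transcription elongation factor, was at 23.8 and 81.9 CPM, a ratio of 0.290 (0.195 to 0.424), seen in 6 and 15 cells, and Id1, an inhibitor of helix-loop-helix factors, at 10.0 and 51.5 CPM. Spp1, Gzma, Gzmb, Ctla2a, Fn1 and Acod1 were lower too, each with over 50% of its vehicle UMIs in 1 cell.

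**Figure D4:**
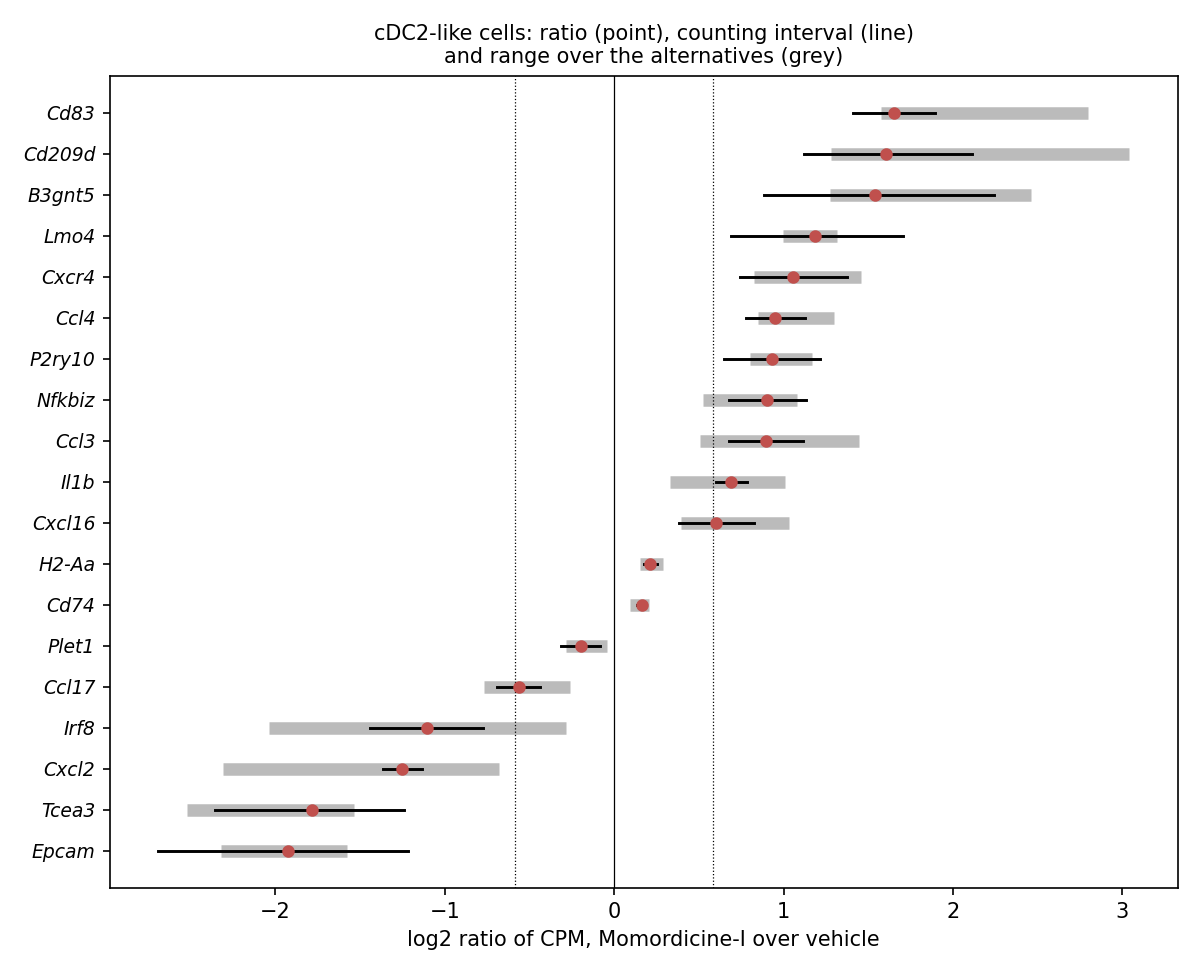
Log2 ratio of CPM, Momordicine-I over vehicle, for 19 genes in cDC2-like cells (horizontal axis; point: value, black line: 95% counting interval, grey bar: range over the alternatives, dotted lines: 1.5-fold). The bar of Cd83 runs from 1.58 to 2.79 and that of Epcam stays below the lower dotted line, while H2-Aa and Cd74 lie near 0.

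Interferon-induced genes were lower in the summed UMIs of Momordicine-I members, and the median of the list depended on 1 vehicle cell. Of 31 measured genes of the list, 16 (51.6%) were past the fold downward and 1 (3.23%) upward, beside 5.18% and 5.52% of all genes. The list's median log2 ratio was −0.66. That vehicle cell held 1320 of the 3473 vehicle UMIs of the list (38%), and the next vehicle cell 179. The highest Momordicine-I cell held 308 of 2945 (10.5%). The high vehicle cell carried 100% of the vehicle UMIs of Ifit3, 89.1% of Ifit1 and 84.0% of Isg15, which encode antiviral effectors, and 364 of the 372 vehicle UMIs of Cxcl10, a chemokine for CXCR3, of which Momordicine-I members had 0.

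Without that cell the list had 20 measured genes, 4 past the fold upward and 1 downward, with a median of 0.06. Of 5792 genes measured without it, 346 were past the fold upward and 267 downward. The cell was chosen by these same genes and left out of the vehicle library alone, while Momordicine-I cells of up to 9934 CPM stayed. The values without it are thus tilted toward Momordicine-I and are no finding. With each gene's highest cell left out of both libraries, the list's median was −0.13. With the vehicle cell alone left out, Isg15 was at 45.0 CPM in Momordicine-I and 12.5 CPM in vehicle members, a ratio of 3.61 (2.08 to 6.65). Irf7, the amplifier of interferon induction, was at 60.6 and 29.6 CPM, a ratio of 2.05 (1.39 to 3.06). Oasl2, an oligoadenylate synthetase-like gene, was lower with or without the cell, at 40.6 CPM in Momordicine-I members and 101 CPM in all vehicle members or 90.3 CPM in the rest. Across cells the median summed level of the list was 1235 CPM in Momordicine-I and 1445 CPM in vehicle members. The list's summed level was also lower in the Momordicine-I library in T-like (1848 and 2744 CPM), B-like (1303 and 2447) and neutrophil-like cells (3676 and 5018). The same held in monocyte-like (2252 and 3062) and C1q macrophage-like cells (2411 and 3210). It was alike in mature dendritic-like cells (1195 and 1224) and higher in cDC1-like cells (3114 and 2522). Whether single cells carried these levels was not tested.

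The cell itself had 35564 UMIs of 4811 genes, with 458 UMIs of H2-Ab1, 8 of Cd209a, 3 of Clec10a and none of Mgl2 or Plet1. It also held 28 UMIs of Fcgr1, an Fc receptor of monocytes and macrophages. It thus passed the rule through Cd209a and Clec10a and was among the cells without Plet1.

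**Figure D5:**
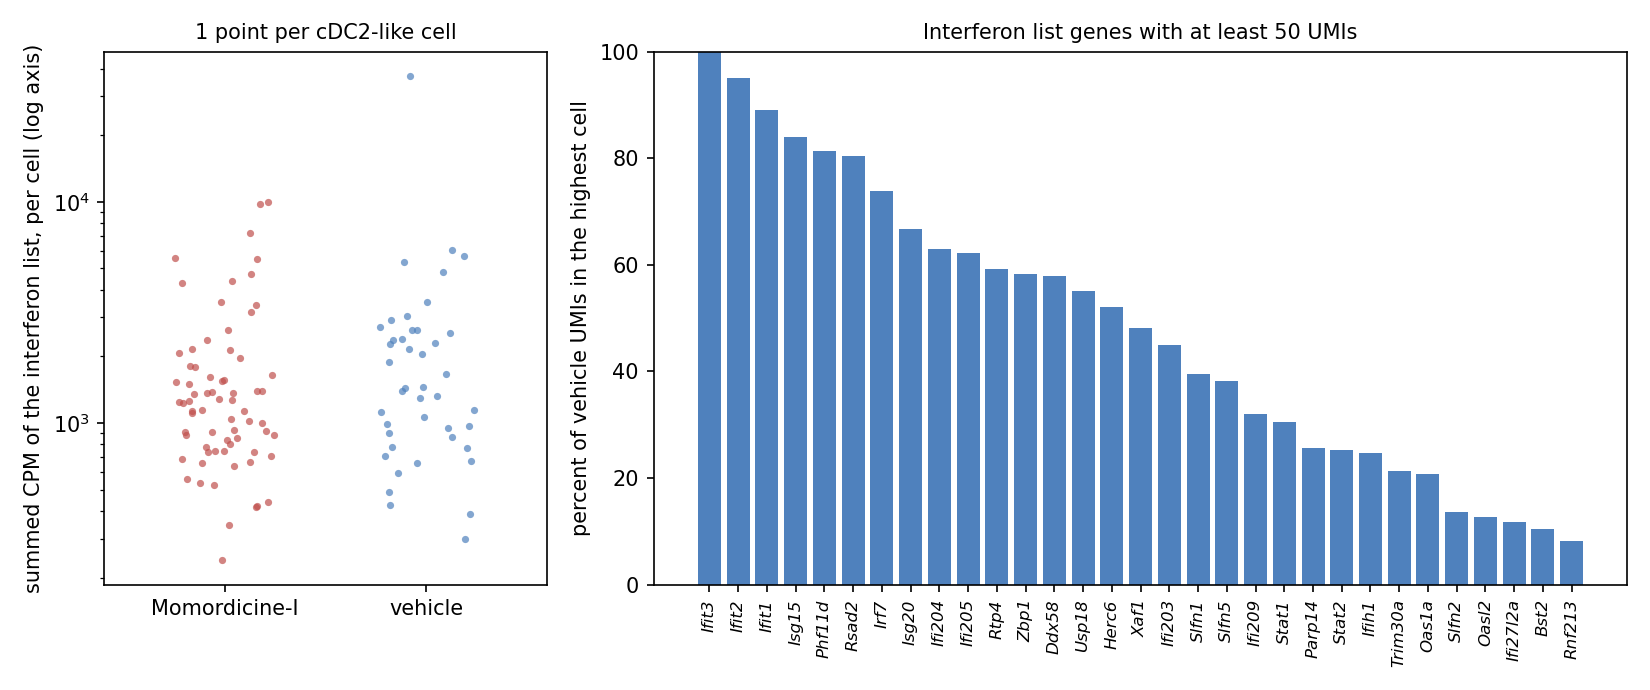
Left, summed CPM of the interferon response list in each cDC2-like cell (log axis), 70 Momordicine-I cells left of 43 vehicle cells; 1 vehicle cell lies at 37116 CPM, above the next vehicle cell at 6038 and the highest Momordicine-I cell at 9934. Right, percent of the vehicle UMIs of each measured gene of the list held by that cell, which reaches 100% for Ifit3.

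Of 15 measured cell cycle genes, 5 (33.3%) were past the fold upward in Momordicine-I members and none downward, beside 5.52% and 5.18% of all genes, with a median log2 ratio of 0.45. Top2a, a topoisomerase of dividing cells, was at 33.1 CPM in Momordicine-I and 11.4 CPM in vehicle members, a ratio of 2.91 (1.62 to 5.57) from 53 and 15 UMIs. Mcm3, of the replication helicase, was at 57.5 and 25 CPM, and Cenpa, the centromere histone, at 108 and 57.6 CPM. Mki67, a marker of cycling cells, was at 7.5 and 12.1 CPM, from 12 and 16 UMIs, too few to enter the count. The list's median turned to −0.10 in cells with Plet1, where Top2a and Cenpa were short of the fold, and to −0.17 at 3000 UMIs per cell.

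The remaining lists are set beside the 10.7% of all genes past the fold in either direction. None of 38 nuclear oxidative phosphorylation genes, 29 actin and migration genes or 14 pattern recognition receptors passed it in either direction. Of 24 glycolysis and hypoxia genes 2 were lower, of 20 lipid and cholesterol genes 3 were lower, and of 23 stress genes 1 was lower, with none higher. Of 25 AP-1 and immediate early genes 1 was higher, of 23 cytokine receptors 3 were higher and 1 lower, of 19 survival and death genes 1 was lower, and of 5 interferon gamma induced genes 2 were lower. Without the vehicle cell highest in interferon genes, 4 of the last list were measured, with 1 higher and 1 lower, and its median moved to −0.16, against −0.53 over all members. Of 19 cDC2 identity genes 2 (10.5%) were higher and 2 lower, and of 13 genes listed with Plet1 and Ccl17 1 (7.69%) was higher and 3 (23.1%) lower.

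Markers of other cells within the members were counted beside these results. T cell markers, all 12 of 12 detected in both libraries, summed to 146 CPM in Momordicine-I and 264 CPM in vehicle members, with UMIs in 20 and 16 cells. NK markers, 8 and 6 of 10 detected, summed to 221 and 330 CPM, and Ncr1 and Klrb1c were at 0 in vehicle members. Macrophage markers, 14 of 14, summed to 356 and 565 CPM, monocyte markers, 9 of 10, to 1109 and 998 CPM, and plasmacytoid markers, 10 of 10, to 744 and 617 CPM. The cDC1 markers, 7 of 10, summed to 513 and 787 CPM, with UMIs in 69 and 43 cells, and with Xcr1 and Clec9a at 0 by the rule. In cDC1-like cells they summed to 4981 and 5987 CPM. Mature dendritic markers, 7 of 10, summed to 131 and 119 CPM, with Ccr7 and Fscn1 limited by the rule. Neutrophil markers, 11 of 12, summed to 1954 and 1732 CPM with Ly6g at 0, and B cell markers, 4 and 5 of 10, to 70.6 and 105 CPM with Cd79a, Ms4a1 and Pax5 at 0. Their part in the results above was not tested, beyond recomputing with cells that held T or NK marker UMIs, or Siglech, left out.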

How the data were processed

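Cells were sorted from pooled tumours and sequenced as 2 droplet libraries with the 10x 3′ v3.1 kit, per the labels' protocols. The authors deposited UMI counts of 32285 genes per barcode; Cell Ranger 6.0.2 and mm10 are named in the submitters' processing notes. From the counts, barcodes with under 200 genes or over 10% mitochondrial UMIs were removed (26 and 297 in Momordicine-I, 25 and 253 in vehicle), which left 4370 of 4693 and 3364 of 3642. The deposited libraries held 41804810 and 33998491 UMIs. Members were gated as described; other gates are cDC1-like, mature dendritic-like, C1q macrophage-like, monocyte-like, B-like, T-like and neutrophil-like.

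UMIs were summed over the cells of a gate, and ratios carry an exact conditional binomial interval; with 1 library per group no test was made. Genes with at least 50 UMIs over both libraries were measured, and 1.5-fold was the fold used. A gene at 0 in a library was set against a floor of 3 counts when medians, or log2 ratios under an alternative, were taken. Gate genes were left out of the counts and medians. Shares carry exact Clopper-Pearson intervals. Scrublet's own threshold marked 1 and 2 barcodes and was set aside; removing 164 and 98 barcodes by the kit's rate is an alternative. Named genes were the 12 higher and 12 lower whose interval lay farthest from 1 (at least 50 CPM), up to 4 per described list and a fixed set; other genes named beside a count of 5 or fewer were chosen after their values were seen. Members, lists and marker sets were chosen with earlier results of these data known. The full count of the chemokine and homing receptor list is not reported here. The ratio procedure was checked on simulated data. Gene positions are from GENCODE vM21 (GRCm38). Python 3.11.15, numpy 2.4.6, scipy 1.17.1 and scanpy 1.11.5 were used. Results were recomputed under 16 alternative settings, and under 4 more chosen after seeing the data.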

Additional observations from a re-analysis of the deposited data

How the results depend on the processing

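The ratio of cell shares stayed above 1 in all 13 alternatives that gave one, from 1.10 to 1.39. Counts of genes past the fold were within 1.5 times the reported ones in 28 of 36 cases. The exceptions changed the number of genes measured or the depth: 714 higher and 772 lower with at least 20 UMIs (of 8275 genes), 138 and 106 with at least 100 (of 3755), 1532 and 1781 with no filter (of 11531), and 82 and 31 at 3000 UMIs per cell (of 919). The interferon median was −0.66 over all cells, 0.064 without the vehicle cell highest in these genes, 0.050 without cells holding T or NK marker UMIs, 0.24 in cells with Plet1 UMIs, 0.021 in thinned cells and −0.13 without each gene's highest cell. In thinned cells, 3 genes of the list were left. That vehicle cell held 1 Cd3g UMI and 0 Plet1 UMIs. The T or NK and the Plet1 settings thus leave it out as well and are not independent of its removal. The chemokine median was 0.90 in thinned cells, where 5 genes were left. Of 1258 gene values (log2 ratios), 12 reversed for genes past the fold, and 30 changed sign for genes not past it. Without cells holding T or NK marker UMIs, Irf4 was at −0.27 and Ifit3 at 2.52. Without plasmacytoid cells Cd7 was at 0.23. In cells with Plet1, Irf4 was at −0.0063 and Ifi204 at 1.03. Without the single vehicle cell, Ifit1 was at 0.78 and Ifit3 at 2.74. There, and without cells holding T or NK marker UMIs, Ifit3 had 0 vehicle UMIs and was set against the floor of 3 counts. In thinned cells Tnf was at 0.90 and Cd7 at 0.083. Without the highest cell, Gzma was at 0.46, Acod1 at 0.37 and Ifit2 at 1.53. For the interferon values, the effect of leaving out 1 vehicle cell is shown above. That step alone left Ifi204 at −0.17, and the thinned setting kept all 43 vehicle cells. The cause of these changes was not tested. No paired analysis was possible because each group has 1 library. With 43 vehicle cells, genes under 50 UMIs could not be compared.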
